A study of Mus musculus with 7 samples.

Results

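Ion channel genes were followed in MN9D cells, a mouse dopaminergic neuroblastoma line, carrying either an empty vector (3 arrays) or constructs for the alpha and beta chains of mouse hemoglobin (4 arrays, called globin-labelled here). The genes were taken by symbol: Kcn (potassium channels), Scn with a digit (voltage-gated sodium channels), Cacna, Cacnb and Cacng (voltage-gated calcium channels), Clcn (the CLC chloride family), and Hcn, Trpa, Trpc, Trpm and Trpv with a digit (channels that pass several cations). The array held 174 probe sets with such a symbol, for 118 of the 12393 genes named by a single symbol: 62 potassium, 23 calcium, 9 sodium, 7 chloride and 17 mixed cation members. Each gene was read on 1 probe set, the brightest by mean signal across the 7 arrays.

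Ion channels are membrane proteins that let ions flow down their gradients. Sodium and calcium entry depolarises a neuron, potassium exit returns it to rest, and calcium that enters also triggers transmitter release and changes in gene expression. Dopamine neurons of the midbrain fire without synaptic input, and L-type and T-type calcium channels, A-type and small-conductance potassium channels, G protein-gated and ATP-sensitive potassium channels and hyperpolarisation-activated HCN channels are known to shape that rhythm. Most channels combine a pore-forming subunit with auxiliary subunits that set its amount at the surface and its gating. Some symbols caught by the rule are not plasma membrane channels of their namesake ion. Clcn3 to Clcn7 encode chloride-proton exchangers of endosomes and lysosomes, several Cacng genes encode TARPs, which are auxiliary subunits of AMPA-type glutamate receptors, and Trpc4ap encodes a protein that binds a TRP channel and is no channel itself.

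All cells were MN9D, so the groups differed by their construct only as far as the labels and the design text say; the promoter of the vector, and whether each line was a clone or a pool, are not stated in those sources. The study asked what globin does to such cells. The labels number the arrays of a group without naming separate cultures, and the p-values therefore cover array-to-array spread that may be technical only. A further control of the design was not analysed here.

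Of 5 alpha-globin probe sets, the 3 that carry the symbols Hba-a2 and Hba-a1 together were 35.8-, 57.4- and 142-fold higher in the globin-labelled arrays, and the other 2 differed by -0.03 (limma adjusted p = 0.626) and 0.03 (adjusted p = 0.697) on the log2 scale. The 3 beta-globin probe sets gave 0.12 (95% CI -0.02 to 0.26, limma adjusted p = 0.149), 0.34 (adjusted p = 0.00558) and -0.05 (adjusted p = 0.608). The labelled overexpression was thus read in the alpha chain, while the beta chain, also named in the design, differed little on this array. Array medians lay between 8.90 and 8.94, and the correlation of arrays over probe sets was 0.9985 to 0.9990 within a group and 0.9904 to 0.9918 across groups. Of 11 neuronal markers 4 were higher and 3 lower (63.6% called), with means over all arrays of 8.18 to 13.0. Of 5 dopaminergic markers 2 were lower (40.0% called), among them Th, tyrosine hydroxylase, from 11.78 to 11.08. The share of all genes called was 40.7%, with 54.1% at or above the median signal and 25.3% below it. Of 25 measured markers of astrocytes, oligodendrocytes, microglia and blood, fibroblasts and endothelium, 0 were called higher and 3 lower by limma (Cd68, Kdr and Mbp), and their mean level was 6.37 to 6.40 in the empty vector arrays and 6.28 to 6.37 in the globin-labelled arrays. RMA values have no true zero, so no marker is listed at 0. The RNA is of whole cultures, so fewer cells that express a gene and less RNA per cell cannot be told apart.

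Of the 118 channel genes 19 rose and 10 fell, nearly all by small steps. A probe set is called when its Benjamini-Hochberg adjusted p, over all 22626 probe sets, is under 0.05. By this rule limma called 29 (24.6%), against 40.7% of all genes on the same array. The rises made up 16.1% of the members, against 20.6% of all genes, and the falls 8.47%, against 20.1%. At an unadjusted p under 0.05 the count was 43. The median difference of the 118 genes was 0.06 on the log2 scale, beside 0.02 for all genes, and 87 of the 118 differences were above 0 (6873 of 12393 for all genes). The differences ran from -0.70 to 0.87. Only 4 genes were called with a fold of at least 1.5, all of them with calcium channel symbols (Cacna2d2, Cacna1h, Cacna2d1 and the TARP gene Cacng3), where 5.28% of all genes reached that size. These shares describe the members beside the rest of the array, and the difference between the shares was not tested.

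The channel genes were mostly dim, and on this array a smaller share of dim than of bright genes was called. The mean signal of 100 members lay below the median probe set (8.93) and that of 18 at or above it; 43 lay below the 25th percentile (6.84). Below the median 18 of 100 members were called (18.0%, against 25.3% of all genes there), and above it 11 of 18 (61.1%, against 54.1%). In 60 members at least 2 arrays held the same value to 4 decimals, and in 10 members at least 4 arrays did (0 of the 10 were called by limma, and ties of this kind shrink the spread that the test sees). The groups did not overlap in 36 members (30.5%, against 45.7% of all genes): in 26 every globin-labelled array was above every empty vector array (23.1% of all genes), and in 10 every one was below (22.6% of all genes). Of those 36, 8 were not called, and 1 called gene, Kcnmb2, had overlapping groups.

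**Figure D1:**
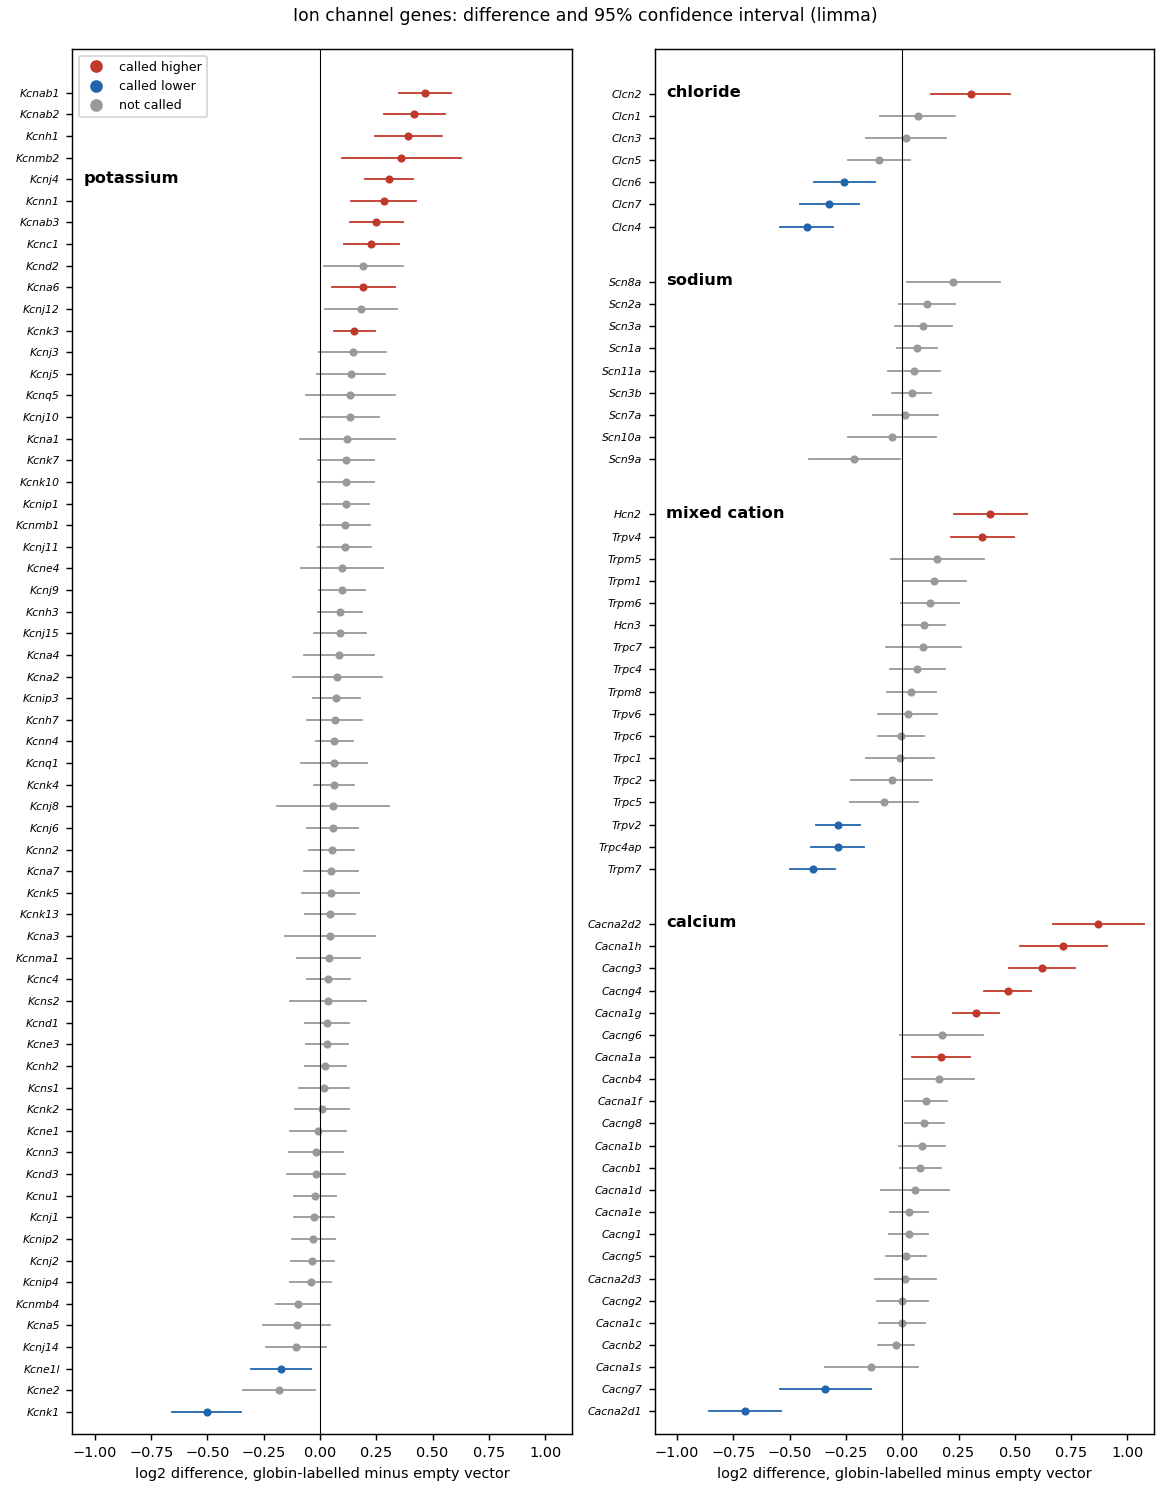
Difference of each of the 118 ion channel genes between the 4 globin-labelled and the 3 empty vector arrays, on the log2 scale (x axis), with its 95% confidence interval from limma, ordered by ion. Called genes are coloured; the calcium members reach from -0.70 to 0.87, and the intervals of the 9 sodium members belong to uncalled genes throughout.

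**Figure D2:**
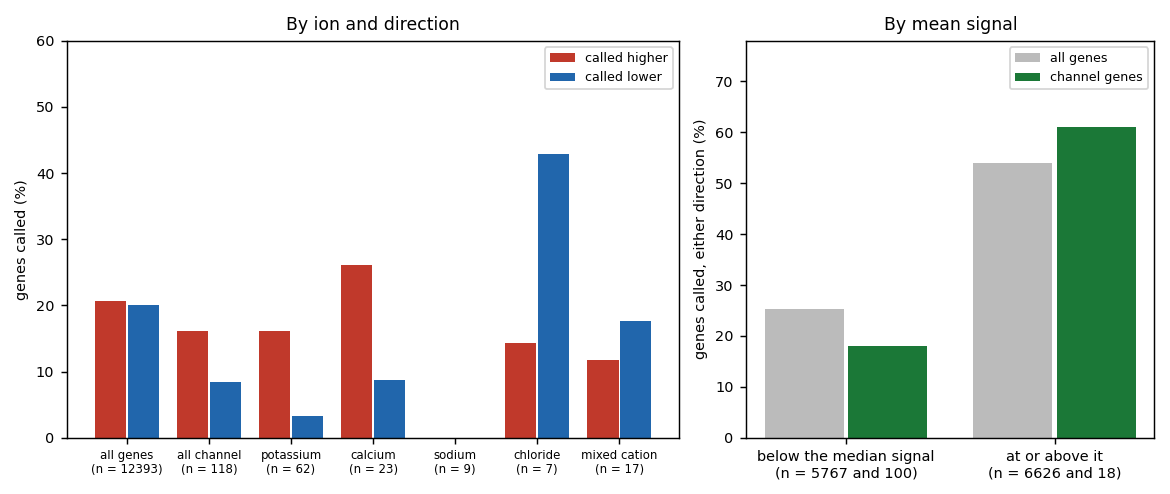
Share of genes called (y axes, percent) by ion and direction, and by mean signal below or above the median probe set, for channel genes and for all genes. The channel share of 24.6% sits under the 40.7% of all genes, and in both sets the share is higher among bright genes, at 61.1% and 54.1%.

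On the probe sets counted, the genes with calcium channel symbols held the largest changes, and the direction differed between subunits of the same kind. Of 23 genes, 6 were higher and 2 lower (26.1% and 8.70%, against 20.6% and 20.1% of all genes), with a median of 0.08 on the log2 scale. On those probe sets the highest rise and the deepest fall of all 118 genes were in paralogs (other probe sets of Trpm7 and Clcn5 fell further, as given with those genes): Cacna2d2 rose 1.83-fold while Cacna2d1 fell 1.62-fold. Both encode alpha2delta subunits, extracellular proteins that carry the pore to the surface and are the targets of gabapentin.

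Cacna2d2 read 7.58, 7.62 and 7.44 in the empty vector arrays and 8.21, 8.34, 8.53 and 8.58 in the globin-labelled arrays. All 4 globin-labelled values lay above all 3 controls, with a wide gap between the groups. The means were 7.54 ± 0.09 (SD, n = 3) and 8.42 ± 0.17 (SD, n = 4), a difference of 0.87 ± 0.09 (SE; 95% CI 0.67 to 1.07; limma adjusted p = 7.11e-05), larger in size than that of 98.1% of all genes. Its other 2 probe sets differed by 0.04 ± 0.05 and 0.05 ± 0.05 and were not called, so the rise rests on 1 of 3 probe sets.

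Cacna2d1 read 8.64, 8.53 and 8.32 with the empty vector and 7.82, 7.77, 7.76 and 7.83 in the globin-labelled arrays. Every globin-labelled value was below every control, and the 4 values were close together. The difference was -0.70 ± 0.07 (95% CI -0.86 to -0.54; limma adjusted p = 6.35e-05), and its other probe set gave -0.72 ± 0.15 (adjusted p = 0.00422). The remaining alpha2delta gene, Cacna2d3, differed by 0.01 ± 0.06 (95% CI -0.12 to 0.15).

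Both measured T-type pores rose. T-type channels open at voltages near rest and are known to support burst and rebound firing. Cacna1h read 8.84, 9.08 and 8.75 with the empty vector and 9.75, 9.62, 9.57 and 9.48 in the globin-labelled arrays. The groups were well apart, at 0.72 ± 0.09 (1.64-fold, 95% CI 0.52 to 0.91, limma adjusted p = 0.000178). Its other probe set gave 0.05 ± 0.05 and was not called, at a mean signal of 6.52 against 9.30 for the one counted. Cacna1g, read by a probe set with a mean of 7.14, was 6.92, 6.94 and 6.99 against 7.22, 7.28, 7.35 and 7.25, again with no overlap. Its difference was 0.33 ± 0.04 (1.25-fold; 95% CI 0.23 to 0.43; limma adjusted p = 0.000381).

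The other pores moved little. Of the 4 L-type genes, which open at stronger depolarisation and are blocked by dihydropyridines, limma called 0, with 1 at an unadjusted p under 0.05 and 0 called by a plain two-sample test. Cacna1c had equal means of 8.00 and a difference of 0.00 ± 0.04 (95% CI -0.10 to 0.10). Cacna1d, the L-type pore tied to pacemaking in dopamine neurons, differed by 0.06 ± 0.07 (95% CI -0.10 to 0.21; limma adjusted p = 0.555). Its level was 6.81 ± 0.13 and 6.87 ± 0.07 in the 2 groups. The N-type pore Cacna1b, which serves transmitter release, differed by 0.09 ± 0.04 (95% CI -0.01 to 0.19; adjusted p = 0.159). The P/Q-type pore Cacna1a was called higher, at 6.34 in each of the 3 controls and 6.56, 6.44, 6.63 and 6.42 in the globin-labelled arrays. Its difference was small, 0.17 ± 0.06 (1.13-fold; limma adjusted p = 0.0367), with control values equal to 2 decimals, and its other probe set gave 0.12 ± 0.07 and was not called. The call was lost without empty vector array 1, 2 or 3 or globin-labelled array 1 or 3, with differences of 0.13 to 0.17 (limma adjusted p = 0.0775 to 0.0856).

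Among the TARPs, 2 rose and 1 fell. These proteins bring AMPA receptors to the membrane and slow their closing. Cacng3 (TARP gamma-3) went from 9.56, 9.67 and 9.66 to 10.37, 10.31, 10.21 and 10.11, a difference of 0.62 ± 0.06 (1.54-fold; 95% CI 0.47 to 0.77; limma adjusted p = 7.69e-05). Cacng4 (gamma-4) went from 9.54, 9.49 and 9.50 to 9.94, 9.92, 9.99 and 10.07, a difference of 0.47 ± 0.05 (1.38-fold; limma adjusted p = 5.26e-05). Neither gene had overlapping groups. Cacng7 (gamma-7) moved down, from 7.85, 7.74 and 8.00 to 7.37, 7.66, 7.66 and 7.42, with the groups just apart. The difference was -0.34 ± 0.09 (1.27-fold; limma adjusted p = 0.0135); without empty vector array 3 it was -0.27 and no longer called (adjusted p = 0.059). Cacng2, which encodes stargazin, had equal means (0.00 ± 0.05; 95% CI -0.11 to 0.11). Of the 3 beta subunit genes, which bind the pore inside the cell, limma called 0, with 1 at an unadjusted p under 0.05 and 0 called by the plain two-sample test.

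**Figure D3:**
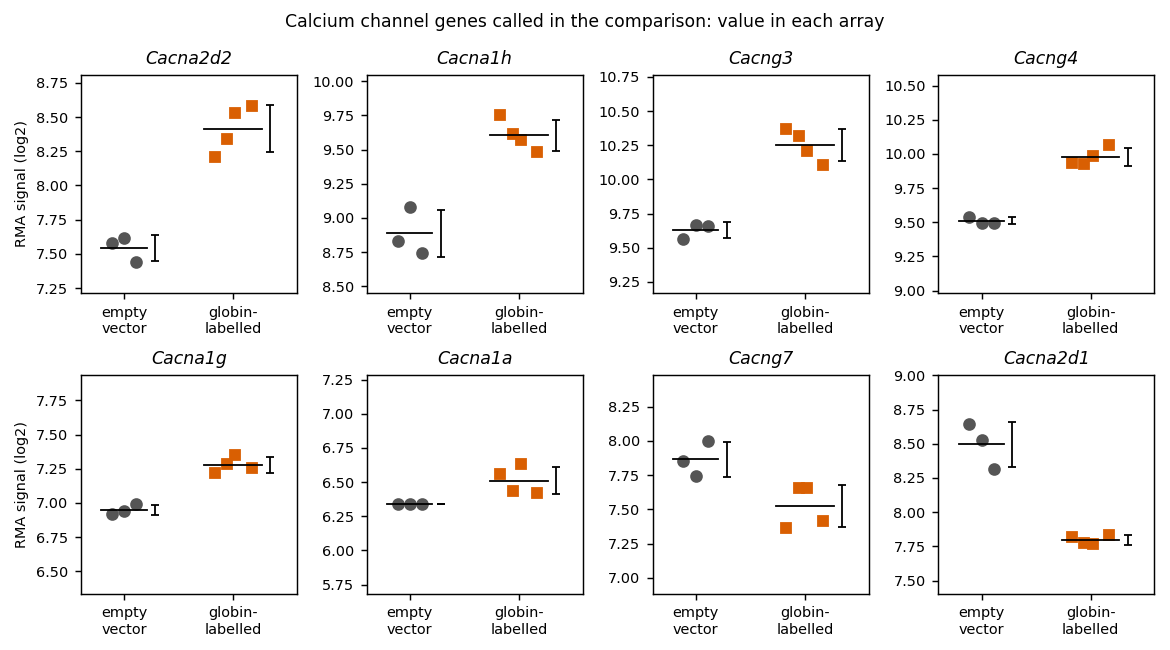
RMA signal (y axis, log2) of the 8 called calcium channel genes in each of the 3 empty vector and 4 globin-labelled arrays; lines are means and bars are 1 SD, and every panel spans the same number of log2 units. In all 8 panels the groups do not overlap, with Cacna2d2 at 7.54 and 8.42 and Cacna2d1 at 8.49 and 7.80.

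Of the 62 potassium channel genes, the largest class, 50 were not called, and the auxiliary Kcnab genes rose together. The called genes were 10 higher and 2 lower (16.1% and 3.23%, against 20.6% and 20.1% of all genes), with a median of 0.06 on the log2 scale, and 25 of the 62 had a mean below the 25th percentile. No potassium gene was called with a fold of 1.5, and 14 of the 62 differences were below 0. All 3 Kcnab genes, which encode cytoplasmic beta subunits of the Kv1 channels with an oxidoreductase-like fold that binds NADPH, were called higher, with a median of 0.42.

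Kcnab1 read 8.87, 8.77 and 8.68 with the empty vector and 9.24, 9.23, 9.22 and 9.27 in the globin-labelled arrays. The 4 values were nearly equal and all above the controls, a difference of 0.47 ± 0.05 (1.38-fold; 95% CI 0.35 to 0.58; limma adjusted p = 9.98e-05), and the other probe set rose by 0.18 ± 0.05. Kcnab2 read 7.74, 7.84 and 7.71 against 8.15, 8.06, 8.28 and 8.24, also without overlap. Its difference was 0.42 ± 0.06 (1.34-fold; limma adjusted p = 0.00051), with 0.17 ± 0.06 in its other probe set (adjusted p = 0.0569). Kcnab3 read 7.43, 7.30 and 7.24 against 7.58, 7.60, 7.59 and 7.52, with a smaller gap between the groups. Its difference was 0.25 ± 0.05 (1.19-fold; limma adjusted p = 0.00434), with 0.13 ± 0.05 in its other probe set (adjusted p = 0.0547). So 1 of the 3 genes was called on every probe set. Of the 7 Kcna genes, the Kv1 pores that these subunits join, 1 was called (14.3%, against 40.7% of all genes). All 7 lay below the median signal, where 25.3% of all genes were called, and 5 of them below the 25th percentile. At such signals a missing call does not show an unchanged level. The called gene, Kcna6, read 6.18, 6.18 and 6.24 against 6.29, 6.52, 6.29 and 6.45 (0.19 ± 0.06, limma adjusted p = 0.0347). That call was lost without empty vector array 1, 2 or 3 or globin-labelled array 2 or 4, with differences of 0.15 to 0.21 (limma adjusted p = 0.0576 to 0.0963).

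Among the other voltage-gated pores, Kcnh1 and Kcnc1 rose. Kcnh1 encodes the ether-a-go-go channel, found in many tumour lines, and read 6.65, 6.66 and 6.54 against 7.04, 7.0, 6.86 and 7.13. Its groups were apart by a clear margin, with a difference of 0.39 ± 0.07 (1.31-fold; 95% CI 0.24 to 0.54; limma adjusted p = 0.00119). Kcnc1, the Kv3.1 pore of fast-spiking neurons, read 8.72, 8.58 and 8.75 against 8.88, 8.99, 8.87 and 8.91, a difference of 0.23 ± 0.05 (1.17-fold; limma adjusted p = 0.00828). In all, 3 of 20 voltage-gated pore genes were called, all higher, where 20.6% of all genes were called higher and 20.1% lower. Of the 20, 19 lay below the median signal, where 25.3% of all genes were called. The difference was above 0 in 18 of the 20, beside 87 of the 118 members and 6873 of 12393 for all genes. These counts were not compared by a test. Kcnh2, the ERG channel, differed by 0.02 ± 0.04 (95% CI -0.07 to 0.11). Kcnd3, the Kv4.3 pore of the A-type current of dopamine neurons, differed by -0.02 ± 0.06 (95% CI -0.15 to 0.11). Its probe set was dim, at a mean of 6.15 (percentile 17.2 of probe sets). Kcnip3, its partner, differed by 0.07 ± 0.05 (limma adjusted p = 0.257), and another Kcnip3 probe set gave 0.17 and was called (limma adjusted p = 0.0143). Of the 4 Kcnip and 3 Kcnd genes limma called 0 in each, with 1 in each at an unadjusted p under 0.05 and 0 in each by the plain two-sample test.

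Calcium-activated channels couple calcium entry to the after-potential. Kcnn1, the SK1 small-conductance channel, read 8.00, 8.04 and 8.04 against 8.47, 8.22, 8.34 and 8.21. Its controls were tight and all below the globin-labelled values, with a difference of 0.28 ± 0.06 (1.22-fold; limma adjusted p = 0.00656), and its other probe set gave 0.19. Kcnn3, the SK3 channel of dopamine neurons, differed by -0.02 ± 0.05 (95% CI -0.14 to 0.10). Kcnma1, the BK pore, differed by 0.04 ± 0.06 (95% CI -0.10 to 0.18). Its auxiliary subunit Kcnmb2, named after its values were seen, read 6.93, 6.76 and 6.46 against 6.93, 7.17, 6.95 and 7.26, so that the groups met at 6.93. The difference was 0.36 ± 0.12 (1.28-fold; limma adjusted p = 0.0349), and the interval was wide, 0.10 to 0.63. The call was lost without empty vector array 2 or 3 or globin-labelled array 2 or 4, with adjusted p-values of up to 0.134 over all refits with limma or the plain two-sample test.

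Of 13 inward rectifier genes 1 was called. Kcnj4 encodes Kir2.3, a channel that holds the resting potential, and read 7.34, 7.20 and 7.27 against 7.57, 7.56, 7.54 and 7.65. It rose in every globin-labelled array, by 0.31 ± 0.05 (1.24-fold; limma adjusted p = 0.000769). Of the 4 G protein-gated genes (Kcnj3, Kcnj5, Kcnj6, Kcnj9) and the 2 pore genes of the ATP-sensitive channel (Kcnj8, Kcnj11) limma called 0, with 0 at an unadjusted p under 0.05 and 0 by the plain two-sample test. Kcnj6, the GIRK2 channel through which dopamine autoreceptors slow firing, differed by 0.06 ± 0.05 (95% CI -0.06 to 0.17), although another probe set of it gave 0.19 ± 0.06 (adjusted p = 0.0256). Kcnj11, the Kir6.2 pore that closes when ATP is high, differed by 0.11 ± 0.05 (95% CI -0.01 to 0.23; adjusted p = 0.13).

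The 2 called genes of the two-pore-domain leak channels went in opposite directions. Kcnk1 (TWIK-1) read 8.51, 8.51 and 8.36 with the empty vector and 7.96, 7.79, 8.07 and 8.00 in the globin-labelled arrays, the largest fall among potassium genes. The groups were apart, with means of 8.46 ± 0.09 (SD, n = 3) and 7.95 ± 0.12 (SD, n = 4) and a difference of -0.50 ± 0.07 (1.42-fold; 95% CI -0.66 to -0.35; limma adjusted p = 0.00036); its other probe set gave -0.30 ± 0.10. Kcnk3 (TASK-1), an acid-sensitive leak channel, read 8.93, 9.04 and 9.03 against 9.16, 9.16, 9.13 and 9.16. That rise was small but free of overlap, 0.15 ± 0.04 (1.11-fold; limma adjusted p = 0.0145), and its other probe sets gave 0.05 and 0.12 and were not called. Kcne1l, a single-pass auxiliary subunit, read 6.12, 6.07 and 6.29 against 6.07, 5.94, 5.99 and 5.95. It was called lower at -0.17 ± 0.06 (limma adjusted p = 0.045), with the lowest control and the highest globin-labelled array alike at 6.07 to 2 decimals. The call was lost without empty vector array 1 or 3 or globin-labelled array 2, 3 or 4, with differences of -0.20 to -0.11 (limma adjusted p = 0.0623 to 0.145).

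No sodium channel gene changed by the test. Limma called 0 of 9 genes, against 40.7% of all genes, with 2 at an unadjusted p under 0.05 and 0 called by the plain two-sample test. Of the 9, 7 lay below the median signal, where 25.3% of all genes were called. The median difference was 0.05. The confidence intervals of the 9 genes lay between -0.41 and 0.43 on the log2 scale. The pair with the smallest p had differences of opposite sign. Scn8a, the Nav1.6 pore of the axon initial segment, read 9.37, 9.58 and 9.19 against 9.73, 9.48, 9.59 and 9.61, with overlapping groups and a difference of 0.23 ± 0.09 (95% CI 0.02 to 0.43; limma adjusted p = 0.0772). Scn9a, the Nav1.7 pore known from pain fibres, read 7.88, 7.74 and 8.05 against 7.74, 7.84, 7.59 and 7.54, also overlapping, at -0.21 ± 0.09 (95% CI -0.41 to -0.01; limma adjusted p = 0.0897). Without empty vector array 2, both passed the threshold, Scn8a at 0.33 (adjusted p = 0.0135) and Scn9a at -0.29 (adjusted p = 0.0444); without globin-labelled array 2, Scn9a passed at -0.27 (adjusted p = 0.0425). Scn2a and Scn3a, pores of central and of embryonic neurons, differed by 0.11 ± 0.05 (95% CI -0.02 to 0.23) and 0.09 ± 0.06 (95% CI -0.03 to 0.22). The Scn3a probe set was dim, at a mean of 5.47 (percentile 10.5 of probe sets). The only measured beta subunit, Scn3b, read 10.80, 10.80 and 10.73 against 10.80, 10.84, 10.83 and 10.80, a difference of 0.04 ± 0.04 (limma adjusted p = 0.425); its groups were apart only in the decimals not printed.

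In the CLC family 3 of the 5 vesicular exchangers fell and a plasma membrane channel rose. Of 7 genes 1 was higher and 3 lower (14.3% and 42.9%, against 20.6% and 20.1% of all genes). Of the 7, 4 lay at or above the median signal, where 54.1% of all genes were called. All 3 falls were among the 5 exchangers, Clcn4, Clcn6 and Clcn7. These proteins trade chloride for protons across the membranes of endosomes and lysosomes and so support their acidification, and CLC-7, with its partner Ostm1, is the lysosomal one.

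Clcn4 read 11.38, 11.35 and 11.26 with the empty vector and 10.84, 10.86, 10.93 and 10.99 in the globin-labelled arrays. Every globin-labelled array was lower, with means of 11.33 ± 0.06 (SD, n = 3) and 10.90 ± 0.07 (SD, n = 4) and a difference of -0.43 ± 0.05 (1.34-fold; 95% CI -0.54 to -0.31; limma adjusted p = 0.000189). Clcn7 read 10.85, 10.85 and 10.94 against 10.63, 10.65, 10.47 and 10.48, a difference of -0.32 ± 0.06 (1.25-fold; limma adjusted p = 0.00175). Clcn6 read 8.89, 9.03 and 9.13 against 8.74, 8.84, 8.71 and 8.75, a difference of -0.26 ± 0.06 (1.19-fold; limma adjusted p = 0.00805). None of the 3 had overlapping groups, and the other probe sets of Clcn4 (-0.52) and Clcn7 (-0.38) were called lower too.

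For Clcn5 and Clcn3 the answer depended on the probe set. Clcn5, named after its values were seen, read 11.56, 11.32 and 11.36 against 11.23, 11.33, 11.34 and 11.34 on its brightest probe set, with overlap and a difference of -0.10 ± 0.06 (95% CI -0.24 to 0.03; adjusted p = 0.216). Its other 2 probe sets were called lower, from 11.06 to 10.58 (-0.48 ± 0.05; limma adjusted p = 8.1e-05) and from 8.68 to 7.90 (-0.78 ± 0.11; limma adjusted p = 0.000463). Clcn3 read 11.48, 11.74 and 11.40 against 11.56, 11.47, 11.64 and 11.56 on its brightest probe set (0.02 ± 0.08; 95% CI -0.16 to 0.20), and its other 3 gave 0.00 ± 0.04, -0.12 ± 0.05 and -0.15 ± 0.05, the last called lower (limma adjusted p = 0.0381). The brightest probe sets of both genes are of a type whose probes can also match other transcripts. Counting a gene as called when any probe set was, all 5 exchangers were lower, Clcn3 on 1 of its 4 probe sets. That rule calls 24.6% of all genes lower. It gives genes with more probe sets more chances of a call, and the 2 shares were not matched for this or for signal.

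Clcn2, a channel opened by hyperpolarisation, went the other way, from 7.74, 7.99 and 7.67 to 8.23, 8.06, 8.05 and 8.09. The groups were just apart, and the difference was 0.30 ± 0.08 (1.24-fold; 95% CI 0.13 to 0.48; limma adjusted p = 0.0119). The call was lost without empty vector array 1 (0.28; adjusted p = 0.05, just above the threshold before rounding) or array 3 (0.24; adjusted p = 0.0505). Clcn1, the muscle chloride channel, differed by 0.07 ± 0.07 (adjusted p = 0.506).

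**Figure D4:**
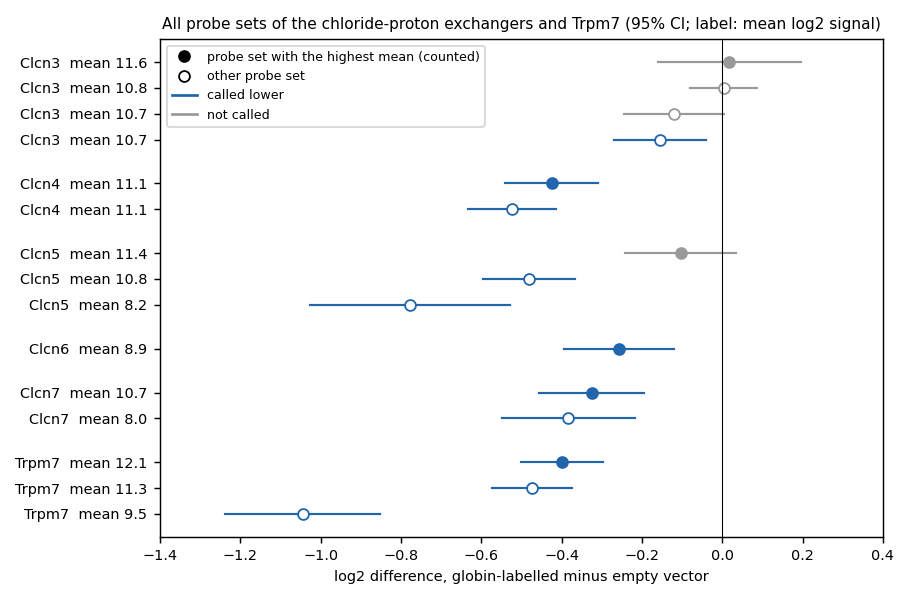
Difference (x axis, log2, globin-labelled minus empty vector) with its 95% confidence interval for every probe set of the 5 chloride-proton exchangers and of Trpm7; filled points are the probe sets with the highest mean. Clcn5 is not called on its brightest probe set (-0.10) but is lower on the other 2 (-0.48 and -0.78), and all 3 probe sets of Trpm7 are lower.

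Of the 10 channel genes that fell, 4 share a letter pattern upstream of their start. In RefSeq's table for GRCm38.p6, the 250 bases before the start of Clcn4, Clcn6, Clcn7 and Trpm7 (described with the cation channels) hold CACGTG, the palindromic E-box read by MITF, TFE3, TFEB, USF and MYC proteins. All 10 genes that fell matched the table, and these 4 (40.0%) had a start with the hexamer. Of the 13 genes that rose and matched, 1 had it (Kcnab1, 7.69%), as did 4 of 75 uncalled members (5.33%) and 1854 of all 27025 genes in the table (6.86%). By starts, 10 of 133 member starts (7.52%), 6 of 32 starts of called members (18.8%) and 1978 of 32851 in all (6.02%) held it. The hexamer contains the letters CG. The windows of called members held a median of 9 CG pairs and 58.4% G and C, against 6 and 52.4% over all starts. The part of this composition in the shares was not tested. The hexamer is its own reverse complement, so both strands were read at once. A match of letters shows no binding, and none was measured here. The 4 sequences are given because they hold the hexamer, among the 10 genes that fell; each is read 5′ to 3′ on the gene's strand and ends at the base before the start, with CACGTG in capitals.

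Clcn4, chr7:7299558-7299807, minus strand; Clcn6, chr4:148038814-148039063, minus strand; Clcn7, chr17:25133141-25133390, plus strand; Trpm7, chr2:126876262-126876511, minus strand, all GRCm38.p6.
Clcn4: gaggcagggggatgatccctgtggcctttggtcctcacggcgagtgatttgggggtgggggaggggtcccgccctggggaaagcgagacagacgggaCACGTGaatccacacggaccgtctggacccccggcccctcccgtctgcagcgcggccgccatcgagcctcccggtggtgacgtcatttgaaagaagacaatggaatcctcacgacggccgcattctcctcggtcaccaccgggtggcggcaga
Clcn6: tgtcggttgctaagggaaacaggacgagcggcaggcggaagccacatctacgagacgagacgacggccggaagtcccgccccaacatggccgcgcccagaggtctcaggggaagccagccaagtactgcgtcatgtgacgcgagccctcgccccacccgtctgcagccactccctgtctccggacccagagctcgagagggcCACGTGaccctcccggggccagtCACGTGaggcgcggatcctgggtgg
Clcn7: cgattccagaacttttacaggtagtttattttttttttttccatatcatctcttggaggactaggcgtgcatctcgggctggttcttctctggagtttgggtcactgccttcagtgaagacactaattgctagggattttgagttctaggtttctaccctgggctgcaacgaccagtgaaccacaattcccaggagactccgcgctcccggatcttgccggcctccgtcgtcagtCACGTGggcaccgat
Trpm7: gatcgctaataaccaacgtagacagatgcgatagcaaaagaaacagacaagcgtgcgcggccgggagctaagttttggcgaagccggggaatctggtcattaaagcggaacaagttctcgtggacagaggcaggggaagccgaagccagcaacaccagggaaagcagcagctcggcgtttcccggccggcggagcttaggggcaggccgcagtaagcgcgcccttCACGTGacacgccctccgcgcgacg
Clcn6 held 2 copies and the others 1. The copy nearest the start ended 9 bases before it in Clcn7, 19 bases before it in Clcn6 and Trpm7 and 147 bases before it in Clcn4. Clcn4 and Clcn7 each have 2 starts in the table, of which 1 carried the hexamer. The search covered 6 letter patterns in all, chosen after the results were seen, on both strands, and no test was run on it. GC boxes (GGGCGG) were in 40.6% of member starts and 32.7% of all, TATAAA in 5.26% (7 starts) and 12.4%, and the cAMP element TGACGTCA in 1 member start (Clcn4, as printed above) and 1.55% of all. The left and right parts of the REST element, TTCAGCACC and a longer one not printed here, were in 0 of the 133 member starts and in 0.301% and 0.0974% of all.

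Of the 17 mixed cation members, Trpc4ap included, 2 rose and 3 fell (11.8% and 17.6%, against 20.6% and 20.1% of all genes). Their median was 0.04 on the log2 scale. Hcn2, a channel that opens on hyperpolarisation and carries the pacemaker current, read 9.20, 9.46 and 9.42 against 9.79, 9.71, 9.84 and 9.65. All globin-labelled values were above all controls, a difference of 0.39 ± 0.07 (1.31-fold; 95% CI 0.23 to 0.55; limma adjusted p = 0.00201). Hcn3, the only other HCN gene measured, differed by 0.10 ± 0.04 and was not called (adjusted p = 0.103).

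Trpm7 is both a magnesium- and calcium-permeable channel and a protein kinase, and it fell on every probe set. Its brightest read 12.35, 12.32 and 12.30 with the empty vector and 11.84, 11.97, 11.96 and 11.93 in the globin-labelled arrays. The groups were far apart for their spread, at -0.40 ± 0.04 (1.32-fold; 95% CI -0.50 to -0.30; limma adjusted p = 0.00012). The other 2 fell by 0.47 ± 0.04 (limma adjusted p = 4e-05) and by 1.05 ± 0.09 (from 10.06 to 9.01; limma adjusted p = 1.8e-05), so the size of the fall depended on the probe set.

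The 2 called TRPV genes moved in opposite directions. Trpv4, an osmosensitive calcium channel, rose from 7.16, 7.24 and 7.06 to 7.48, 7.47, 7.44 and 7.65 (0.36 ± 0.06; 1.28-fold; 95% CI 0.21 to 0.50; limma adjusted p = 0.00166). Trpv2 fell from 10.51, 10.55 and 10.59 to 10.33, 10.22, 10.26 and 10.24 (-0.29 ± 0.04; 1.22-fold; limma adjusted p = 0.000657). Neither had overlapping groups. Trpc4ap, a member by its letters only, fell from 11.59, 11.72 and 11.67 to 11.47, 11.35, 11.37 and 11.30 (-0.29 ± 0.05; limma adjusted p = 0.00198). Of the 6 TRPC pores, which open downstream of phospholipase C, limma called 0, with 0 at an unadjusted p under 0.05 and 0 by the plain two-sample test. Trpc6 differed by -0.01 ± 0.05 (95% CI -0.11 to 0.10), at a signal in the 1.48th percentile of probe sets.

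The probe sets of one gene mostly moved the same way or not at all. Of the 42 genes with several, 0 had probe sets called in both directions. Over all 174 member probe sets 25 were higher and 20 lower, 25.9% in all, where 39.5% of the array's probe sets were called. Of the 14 called genes with several probe sets, 8 had the same call on each, and 6 did not: Cacna1a, Cacna1h, Cacna2d2, Kcnab2, Kcnab3 and Kcnk3. In 6 uncalled genes another probe set was called: Clcn3, Clcn5, Kcnip3 and Kcnj6, and, named after their values were seen, Cacng5 (-0.27; adjusted p = 0.00278) and Kcnc4 (0.20; adjusted p = 0.0173).

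Genes that work with channels were read from lists of partners, other channels and pumps. For comparison, 40.7% of all genes were called (54.1% of those at or above the median signal and 25.3% below it). Of 23 channel partners 7 were higher and 5 lower (52.2%), with a median of 0.06. Fgf13, an intracellular FGF homologue that binds sodium channels and microtubules, read 6.56, 6.47 and 6.30 against 7.91, 8.05, 8.03 and 8.09. That is 1.58 ± 0.07 on the log2 scale (2.98-fold; limma adjusted p = 3.63e-07), with 0.30 ± 0.05 on its other, dimmer probe set. Stac, a calcium channel adaptor, rose by 0.52 ± 0.05 (limma adjusted p = 5.76e-05), and Lgi1, a secreted protein tied to Kv1 channels and epilepsy, by 0.41 ± 0.04 (limma adjusted p = 0.000103). Rest, a repressor of neuronal genes that include channels, was named after its values were seen; it fell by 0.31 ± 0.05 (limma adjusted p = 0.00153) on 1 probe set and was lower on 1 of its other 2.

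Of 26 ion pumps and exchangers 6 were higher and 9 lower (57.7%, against 40.7% of all genes), with a median of 0.01; 91.7% of those at or above the median signal and 28.6% of those below it were called. The beta subunits of the sodium pump parted. Atp1b1 fell by 0.59 ± 0.06 (limma adjusted p = 7.68e-05) and was called lower on 4 of 5 probe sets, while Atp1b2, named after its values were seen, rose by 0.54 ± 0.07 (limma adjusted p = 0.000207) and was called higher on its other probe set too. The FXYD proteins that tune the same pump also differed in sign: Fxyd7 rose by 0.80 ± 0.09 (1.74-fold; limma adjusted p = 8.87e-05) and Fxyd5 fell by 0.60 ± 0.07 (limma adjusted p = 0.000112). Of 15 genes of calcium stores and store-operated entry 4 were higher and 2 lower (40.0%; median 0.03). Itpr3, an IP3 receptor of the endoplasmic reticulum, rose by 0.57 ± 0.06 (1.48-fold; limma adjusted p = 0.000108). The lysosomal channels differed in sign, with Tpcn1 up by 0.46 ± 0.06 (limma adjusted p = 0.000317; its other 2 probe sets not called) and Mcoln1, which releases lysosomal calcium, down by 0.45 ± 0.05 (limma adjusted p = 0.000157; its other probe set also lower).

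Of 17 other chloride and volume channel genes 4 were higher and 3 lower (41.2%; median 0.05). Ttyh2 fell by 0.77 ± 0.05 (1.7-fold; limma adjusted p = 4.01e-06), and Clic1 fell by 0.30 ± 0.04 (limma adjusted p = 0.000477), while Lrrc8c, a subunit of the volume-regulated anion channel, rose by 0.19 ± 0.04 (limma adjusted p = 0.00518). Of 19 other cation channel genes 2 were higher and 2 lower (21.1%; median 0.06), and all 3 named here are ATP-gated P2X receptors. P2rx7, which opens at high ATP and is known from immune cells, read 9.59, 9.64 and 9.94 against 8.67, 8.70, 8.65 and 8.57. It fell far below every control, by 1.08 ± 0.08 (2.11-fold; limma adjusted p = 1.02e-05); P2rx4 fell by 0.21 ± 0.04 (limma adjusted p = 0.00274) and P2rx3 rose by 0.63 ± 0.07 (limma adjusted p = 9.73e-05). Of the 5 microglia and blood markers 1, Cd68, was also lower (8.06 to 6.81). The other 4 were not called. Of the 5 differences 2 were above 0 and 3 below, with a median of -0.01. The mean level of the 5, Cd68 included, was 6.15 to 6.20 in the controls and 5.87 to 6.02 in the globin-labelled arrays. The part of these markers in the P2rx7 and P2rx4 values was not tested.

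Position was a property that the symbols did not use. For each member the median difference of up to 10 measured genes on either side was taken from the RefSeq gene order, and over all 12365 genes with a position the 5th to 95th percentile of that median was -0.13 to 0.15. By its construction this range leaves out 5% of all genes at either end. Of the 29 called members 3 lay outside it, and of all 118 members 9 did, with no test run on these counts. Cacna2d2 (0.03), Cacna2d1 (0.02), Cacna1h (0.09) and Cacng3 (0.04) had neighbours near 0. The neighbours of Kcnj4 were mostly higher (median 0.21; 12 of 20 called higher), as Kcnj4 was, and 10 of 20 neighbours of Trpm7 were lower (median -0.14), as Trpm7 was. The neighbours of Trpv4 went against it: 12 of 20 were lower, with a median of -0.28, while Trpv4 rose.

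**Figure D5:**
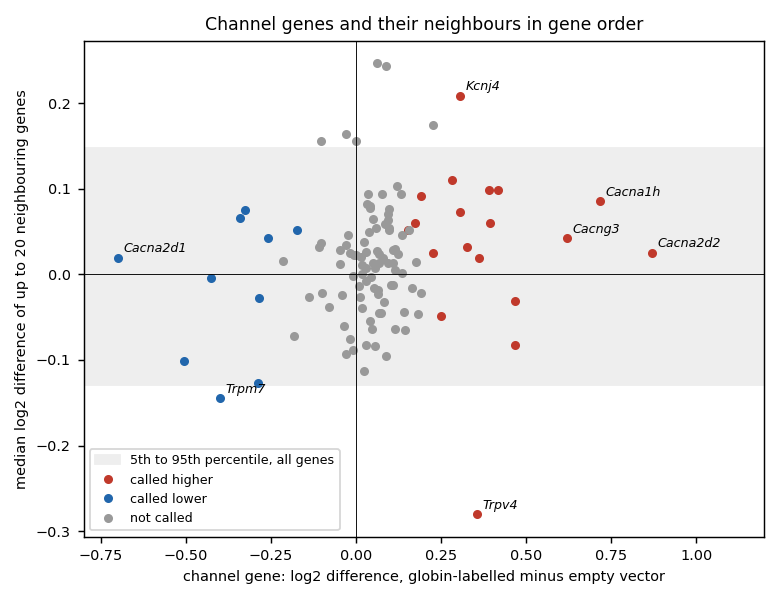
Each channel gene's own difference (x axis, log2) against the median difference of up to 20 neighbouring measured genes (y axis, log2); the grey band is the 5th to 95th percentile of that median over all genes, -0.13 to 0.15. The genes with the largest own differences sit inside the band, and Trpv4 lies farthest below it at -0.28.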

How the data were processed

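Total RNA of the 7 MN9D samples was labelled in 1 amplification cycle and hybridised to mouse 430A 2.0 arrays, per the labels' protocols. The authors deposited log2 values; the submitters' processing notes name RMA, without a version. RMA corrects background, evens out the arrays' distributions and summarises probes, which hides shifts shared by most genes and compresses large folds. The values were used as deposited, and all sample columns were used.

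Of 22690 probe sets, 64 array controls were left out and 22626 tested with limma 3.58.1 in R 4.3.3 (lmFit, eBayes; two-sided; Benjamini-Hochberg over all of them; called at adjusted p under 0.05; intervals of 95%). One symbol was annotated for 20380, several for 691, and 1555 were unnamed here. All 118 member symbols were found in the RefSeq table of GRCm38.p6, and 0 needed updating. The fit was tested on simulated data.

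The members, gene lists and tests were chosen with earlier results of these data known. Named genes were called members with groups that did not overlap (up to 8 rises and 8 falls for potassium and 5 of each for the other ions), members known from dopamine neurons, members with a disagreeing probe set, up to 3 called genes of each related list by smallest p, and marker genes. Alternatives were other scalings, eBayes settings, array weights, a plain two-sample test, a filter on dim probe sets (25th percentile), other choices of probe set, a minimum fold of 1.2, the replicate number as a block and leaving out arrays. Arrays carry no depth, and their number limits the precision.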

Additional observations from a re-analysis of the deposited data

Results flagged for a closer look

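In the 4 globin-labelled arrays, 3 of the 44 named channel genes had 1 array set apart from the rest by a gap above Dixon's 95% critical value for 4 samples; chance does so in about 1 of 20 groups. Cacna1d read 6.7649 in globin-labelled array 3 and 6.90 to 6.91 in the other arrays. Kcnk3 read 9.1331 in globin-labelled array 3 and 9.16 in the others. Trpv4 read 7.6495 in globin-labelled array 4 and 7.44 to 7.48 in the others.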

How the results depend on the processing

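Of the 29 called genes, 21 kept their call in all 15 refits. Cacna1a and Kcne1l lost it in 10 of the 14 refits that held them, and Kcna6 in 9 of 14. Of 15 refits, Kcnmb2 lost it in 6, Clcn2 in 4, Cacng7 in 3, Kcnk3 in 2 and Kcnc1 in 1. The totals stayed within 1.5 times of 19 higher and 10 lower throughout (13 to 22 and 8 to 13), and no scaling moved the median of all genes by over 0.02. A minimum fold of 1.2 left 6 potassium genes higher. Potassium genes lower numbered 1, not 2, under that minimum, median centring, eBayes with trend and robust, the plain two-sample test, the dim filter, the replicate block, and with globin-labelled array 4 and empty vector array 1 both left out (a setting chosen after seeing the data), and 1 to 2 when single arrays were left out. Quantile normalization went the other way: of the 5 Kcne genes, which count as potassium genes, it called 2 lower, not 1. Sodium genes called were 1 higher and 1 lower under quantile normalization, and 0 to 1 each when single arrays were left out. The probe set nearest each gene's median gave 3 calcium genes higher. Calcium genes lower were 1 under the plain test and without the array pair (1 to 2 without single arrays), chloride genes higher were 0 in both (0 to 1 without single arrays), and counting any probe set gave 5 chloride genes lower. The causes were not tested.

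Signs turned only in genes that were not called. Cacna1c became -0.0277 without the array pair, -0.0159 with the block, -0.0214 after quantile normalization and -0.0055 with array weights. On the probe set nearest the median, Cacna1d became -0.0138, Clcn3 -0.1203 and Kcnma1 -0.1582. Clcn3 was -0.0093 without the array pair, and Trpc6 0.0029 after median centring. Leaving out single arrays gave -0.0159 to 0.0299 for Cacna1c, -0.0186 to 0.1133 for Cacna1d, -0.0543 to 0.1169 for Clcn3, -0.0479 to 0.0392 for Kcnd3, -0.0757 to 0.0341 for Kcnn3 and -0.0362 to 0.0188 for Trpc6.

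The replicate numbers did not pair the arrays: deviations of same-numbered arrays correlated at -0.36, -0.30 and -0.14. Differently numbered pairs ran from -0.23 to 0.28, the highest being empty vector array 1 with globin-labelled array 4. The main fit has no term for deviations shared across groups. With the number as a block and globin-labelled array 4 left out, 15 members were higher and 9 lower, beside 18 and 9 for the same arrays without the block. Most members are dim, and the number of arrays limits what could be seen.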
